A study of Mus musculus with 2 samples.

Results

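A set of 10 genes of the S100 and CRIP families (Crip1, Crip2, S100a4, S100a6, S100a8, S100a9, S100a10, S100a11, S100a13 and S100a16) was followed through 4 cell classes of mouse tumours. They were taken by symbol and are 10 of the 32285 genes in the deposited tables. They were chosen with their class levels in these same 2 libraries known, so levels and ratios are descriptions with no test. Tumours had been grown in C57BL/6 mice from MC38, a mouse colon carcinoma line, and profiled by droplet single-cell RNA sequencing that counts unique molecular identifiers (UMIs) at the 3′ ends of transcripts. The group RSPO3-OE had the genotype MC38-RSPO3-OE, cells that overexpress the secreted Wnt-enhancing protein RSPO3, and the group Ctrl had the genotype MC38-Ctrl. The labels call the tissue a xenograft although line and host are both mouse. What drives RSPO3, whether the line is 1 clone, how many mice were used, their age, and when and where the tumours grew is not stated in the sources used here. Each group had 1 library, so cells are not replicates, no difference has a replicate check, and all intervals are 95% intervals for counting error only.

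S100 proteins are small proteins with a pair of EF-hand loops that form dimers, and most of them, on binding calcium, expose a surface that grips partner proteins. Inside cells they act on annexins, myosin and other cytoskeletal partners, and S100A8 and S100A9, which pair as calprotectin in neutrophils and monocytes, are released and can act on the receptors TLR4 and RAGE. CRIP1 and CRIP2 are small cysteine-rich proteins built of zinc-binding LIM domains, which bind other proteins.

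RSPO3-OE gave 155615189 UMIs over 7314 barcodes and Ctrl 143881763 over 7301. After filtering 6991 and 6896 cells were kept, and 7 barcodes occurred in both libraries. Rspo3 was at 0 UMIs in all 4319 Ctrl tumour cells, and in RSPO3-OE 3265 of 4196 tumour cells were also at 0. Classes were set by UMI gates, and cells that passed more than 1 gate were left out. Tumour cells (no Ptprc UMI and at least 1 Hmga2 UMI) numbered 4196 in RSPO3-OE and 4319 in Ctrl, macrophages (C1qa, C1qb and C1qc together at 20 UMIs or more) 1074 and 1106, T cells (Cd3d, Cd3e and Cd3g together at 2 or more) 408 and 202, and neutrophils (Retnlg and Csf3r together at 2 or more) 81 and 14. The median depth was 25417.5 and 21439 UMIs in tumour cells but only 1682 and 1797 in neutrophils. The epithelial genes Epcam, at 0 UMIs, and Krt18, at 0.451 and 0.358 CPM (the UMIs of a gene over all UMIs of its class, as counts per 1000000), were near absent from the tumour class, in which Krt8 stood at 540.0 and 87.0 CPM, Hmga2 at 351 and 270 CPM, and all 5 fibroblast markers were detected with summed levels of 2257 and 1858 CPM. The class is therefore called tumour cells by its rule. Y-linked genes summed to 0.364 and 0.188 CPM in it, against 157 and 96.4 CPM in macrophages and 162 and 125 CPM in T cells. A part of host fibroblasts in the tumour class was not tested.

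In tumour cells 3 members were at least 2-fold higher in RSPO3-OE than in Ctrl: Crip1, Crip2 and S100a16. S100a4 was higher by a smaller factor, and S100a6, S100a10, S100a11 and S100a13 differed by less. S100a8 and S100a9 were almost absent from tumour cells and marked neutrophils. In macrophages S100a4 was higher in RSPO3-OE. Once the few cells that also held the tumour gene Hmga2 were left out, some differences in macrophages, T cells and neutrophils were smaller or reversed. In T cells others, such as that of S100a4, were larger. Levels below are CPM of the class total, and since 1 UMI stands for 1 transcript end they were not divided by gene length.

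**Figure D1:**
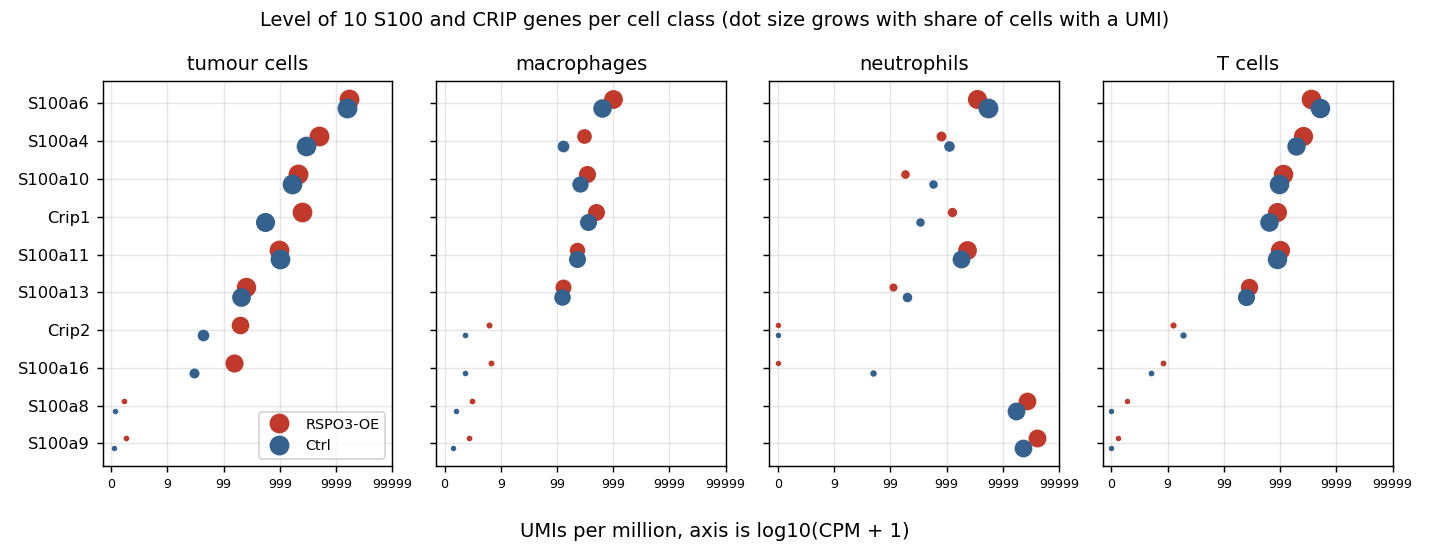
Level of each member in each cell class and library (CPM on a log axis), with dot size giving the percentage of cells with at least 1 UMI. S100a8 and S100a9 stand out in neutrophils, and S100a6 in tumour cells at 17048 and 15682.5 CPM has the highest level there.

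The genes for CRIP1 and CRIP2 lie next to each other on the plus strand of chromosome 12, Crip2 at chr12:113140236-113145506 and Crip1 at chr12:113146316-113153879 in the mm10 build (GENCODE annotation), 810 bases apart. CRIP2 has more than one LIM domain and is known from blood vessels and heart, and CRIP1 has a single one and was first found in intestine. In tumour cells Crip1 was at 2470.3 CPM in RSPO3-OE and 548 in Ctrl, a log2 ratio of 2.17 (2.16 to 2.19). Crip2 was at 193 and 42.2 CPM, a log2 ratio of 2.19 (2.15 to 2.24). Endothelial markers in the tumour class stood at a summed 15.6 and 2.47 CPM, Cdh5 at 8.18 and 0.546 and Pecam1 at 7.23 and 1.91 CPM, and their part in the level of Crip2 was not tested. The 2 neighbouring genes thus stood at nearly the same ratio, and Crip1 was the more abundant by CPM in both libraries.

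Crip1 was detected in 99.5% of RSPO3-OE and 94.4% of Ctrl tumour cells, and in 79.9% and 37.0% after each cell was thinned to 1000 UMIs. Crip2 was detected in 84.5% and 43.2% of cells, and in 16.4% and 3.96% after thinning. Per cell, the median Crip1 level was 2317 CPM in RSPO3-OE and 396 in Ctrl, and 2.59% of Ctrl cells were above the RSPO3-OE median. The tenth to ninetieth percentiles of Crip1 ran from 509 to 4731 CPM in RSPO3-OE and from 76.4 to 1348 CPM in Ctrl, so the distributions overlapped only in part and the difference was not confined to a small group of cells.

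The promoter windows of both Crip genes are shown because the genes are neighbours with nearly the same ratio; each is 180 bases before to 20 bases after a RefSeq transcription start of GRCm38.p6, 5′ to 3′ on the gene's strand, with the GC box GGGCGG or its reverse complement CCGCCC in capitals. The RefSeq start of Crip1, base 113152012, lies inside the GENCODE gene, which begins at 113146316, so its window is not beside the end of Crip2. The window of the downstream S100a16 start follows those of the Crip genes for comparison.
Crip1 (chr12:113151832-113152031, plus strand): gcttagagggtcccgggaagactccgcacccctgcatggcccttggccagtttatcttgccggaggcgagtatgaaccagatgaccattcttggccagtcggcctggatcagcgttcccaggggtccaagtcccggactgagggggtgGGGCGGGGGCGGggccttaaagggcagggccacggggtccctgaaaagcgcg
Crip2 first start (chr12:113140056-113140255, plus strand): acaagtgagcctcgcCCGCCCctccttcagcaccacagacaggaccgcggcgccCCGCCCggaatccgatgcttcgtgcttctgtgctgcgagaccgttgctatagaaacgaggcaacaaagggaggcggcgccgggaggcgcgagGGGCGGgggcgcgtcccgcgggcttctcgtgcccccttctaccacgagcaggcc
S100a16 downstream start (chr3:90540966-90541165, plus strand): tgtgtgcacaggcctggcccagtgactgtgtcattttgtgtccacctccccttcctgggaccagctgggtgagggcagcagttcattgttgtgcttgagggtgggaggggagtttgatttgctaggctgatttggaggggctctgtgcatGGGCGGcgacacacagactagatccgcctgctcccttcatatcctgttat
The search covered 300 bases, from 250 before to 50 after the start, on both strands, and hits may overlap. Within these Crip1 had 3 matches of GGGCGG, the first Crip2 start had 4 and the second Crip2 start, not printed, had 5. The upstream S100a16 start had none and the downstream start had 1. S100a11, whose level differed little in tumour cells, also had 3, S100a9 had 1, and the windows of S100a4, S100a6, S100a8 and S100a13 had none, so the motif is not particular to the Crip genes. GGGCGG occurred in 35.7% of the 32851 promoter windows searched. Of the 10 members, 9 had a window in the table, and S100a10 was not matched. A match is only a string of letters, and no match says only that these letters were not in the window.

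S100a16, which lies at chr3:90537254-90543151 on the plus strand, encodes an S100 protein found in many tissues. It was at 155 CPM in RSPO3-OE and 28.9 in Ctrl tumour cells, a log2 ratio of 2.42 (2.37 to 2.48). It was detected in 88.1% of RSPO3-OE cells and 32.0% of Ctrl cells, and in 14.1% and 3.08% after thinning to 1000 UMIs. Its median per-cell level in Ctrl was 0, and 6.83% of Ctrl cells were above the RSPO3-OE median of 135 CPM. The 10% of Ctrl cells with the most S100a16 held 61.2% of its Ctrl UMIs, against 29.1% in RSPO3-OE. These shares rest on 3067 and 17879 UMIs and were not matched for level, so no difference in spread is read from them.

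Of the 10 members, 8 passed a minimum of 10 CPM in the higher library and 20 UMIs in sum in tumour cells, and 3 of those were at least 2-fold higher and 0 lower. Over all 8053 genes that passed, 2.69% were at least 2-fold higher and 1.08% lower. S100a4, at a ratio of 1.70-fold, was the nearest member below the 2-fold line, and Crip1, at 4.51-fold, the nearest above it. The median log2 ratio of all genes in tumour cells was -0.06, and nothing is read from the members' counts because the genes were chosen on these levels.

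**Figure D2:**
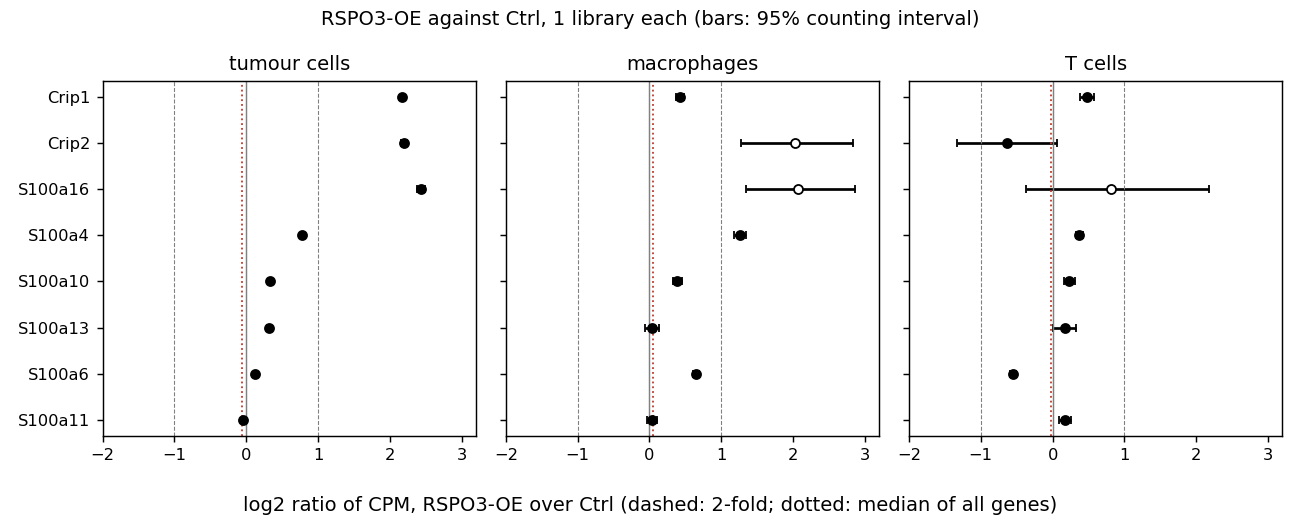
Log2 ratio of RSPO3-OE over Ctrl in tumour cells, macrophages and T cells for the members other than S100a8 and S100a9. Bars are 95% counting intervals, and dashed lines mark 2-fold. Crip1, Crip2 and S100a16 lie above 2-fold in tumour cells. Open symbols mark members below the minimum, and neutrophils are not drawn.

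S100a4, S100a6, S100a8, S100a9, S100a13 and S100a16 lie within 181 kb on chromosome 3, whereas S100a11 and S100a10 lie 28.8 kb apart, 2825 kb farther along the chromosome. S100A4, known for binding non-muscle myosin IIA and for its role in cell motility and metastasis, was at 4951 CPM in RSPO3-OE and 2907 in Ctrl, a log2 ratio of 0.77 (0.76 to 0.77). Its per-cell medians were 4609 and 2449 CPM, with 21.1% of Ctrl cells above the RSPO3-OE median. S100a4 overlaps a same-strand gene model in the annotation, so part of its transcripts may not have been counted as S100a4, which was not tested.

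S100A6, also called calcyclin, binds the calcyclin-binding protein CACYBP and was the most abundant member in tumour cells. It was at 17048 and 15682.5 CPM, a log2 ratio of 0.12, and its per-cell distributions overlapped largely, with 40.8% of Ctrl cells above the RSPO3-OE median. S100A10 forms a complex with annexin A2 and helps plasminogen activation at the cell surface. S100a10 was at 2092 and 1661 CPM, a log2 ratio of 0.33, with 30.0% of Ctrl cells above the RSPO3-OE median. S100A13, which takes part in the release of FGF1 without a signal peptide, was at 250.1 and 202 CPM, a log2 ratio of 0.31. S100A11, which binds annexin A1, was at 974 and 1010.4 CPM, a log2 ratio of -0.05, and the per-cell medians of 892 and 866 CPM were almost equal. For S100a11 the ratio changed sign between settings, from -0.07 to 0.05.

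**Figure D3:**
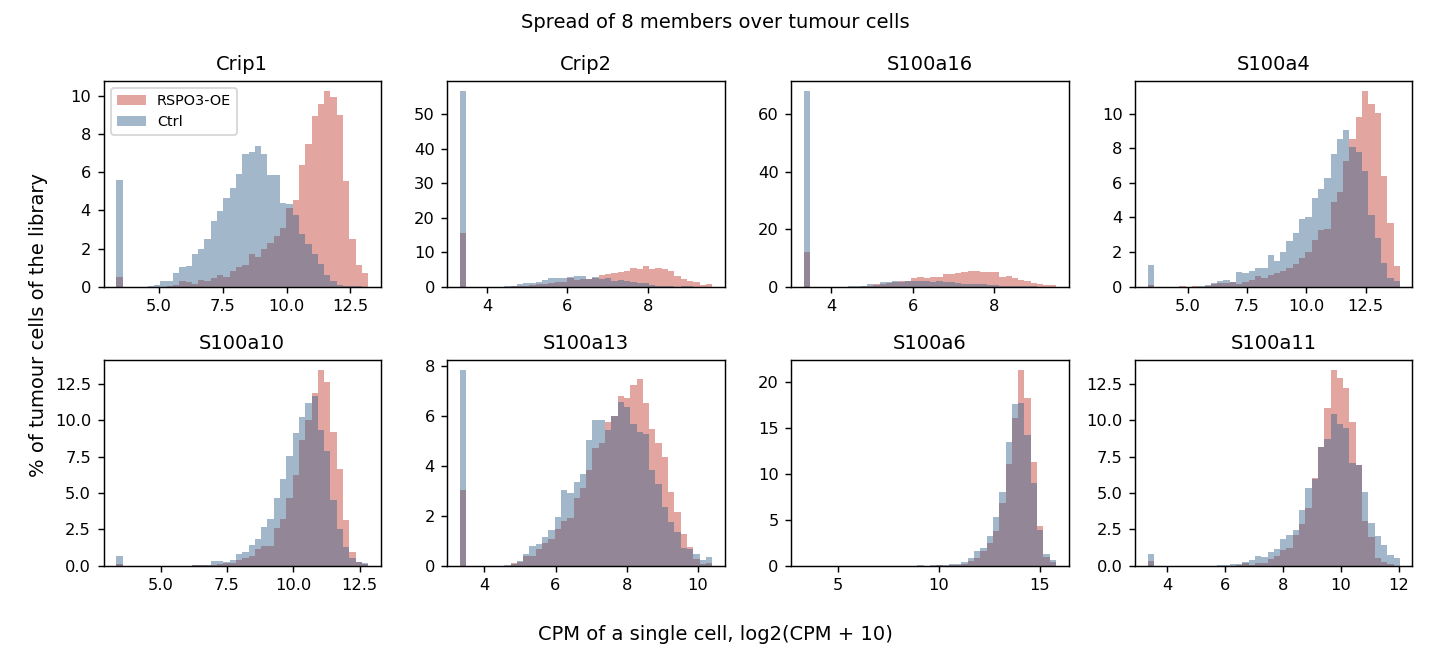
Distribution over single tumour cells of the 8 detected members, as CPM of each cell in the RSPO3-OE and Ctrl libraries. The Crip1 distributions separate most, with medians of 2317 and 396 CPM, and those of S100a11 almost coincide.

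Within tumour cells the differences were examined in subsets defined by other genes. Cells with 3 or more UMIs of Mgp, which encodes matrix Gla protein, numbered 1279 in RSPO3-OE and 341 in Ctrl, and those with 10 or more of Krt8 1402 and 202, so the libraries differ in composition. The log2 ratio of Crip1 lay between 1.90 and 2.27 in all 9 subsets compared with Ctrl. Its level in RSPO3-OE was 3363 CPM in Mgp-positive and 2159 CPM in other cells, and in Ctrl 841 and 528 CPM. Crip2 had ratios from 1.81 to 2.27 over the subsets. The difference in the Crip genes was thus present in each subset examined.

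S100a16 varied more. Its ratio was 1.13 among cells with at least 10 Krt8 UMIs, where Ctrl reached 63.5 CPM, and 2.78 among cells with 3 or more Mki67 and Top2a UMIs, a gate for dividing cells. In Ctrl, S100a16 was at 19.8 CPM in dividing cells and 48.5 CPM in the others. S100a4 had ratios from 0.43 in cells with at least 3 UMIs of Lum and Pdgfra together to 1.11 in Mgp-positive cells.

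Within RSPO3-OE the cells with 10 or more Rspo3 UMIs (346) were compared with those at 0 (3265). Crip1 was at 1690 CPM in the first and 2643 CPM in the second. S100a4 was at 4145 and 5142 CPM, S100a6 at 14688 and 17704 CPM and Crip2 at 143 and 202 CPM. S100a10 was the only detected member with the higher level in the Rspo3-high cells, at 2247 against 2055 CPM. The Rspo3-high cells also had a higher median depth, 28709 against 24481 UMIs, and its part in these differences was not tested. Cells with no Rspo3 UMI still had a Crip1 ratio of 2.27 over Ctrl, so the higher level of Crip1 was present in cells in which Rspo3 was not counted.

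**Figure D4:**
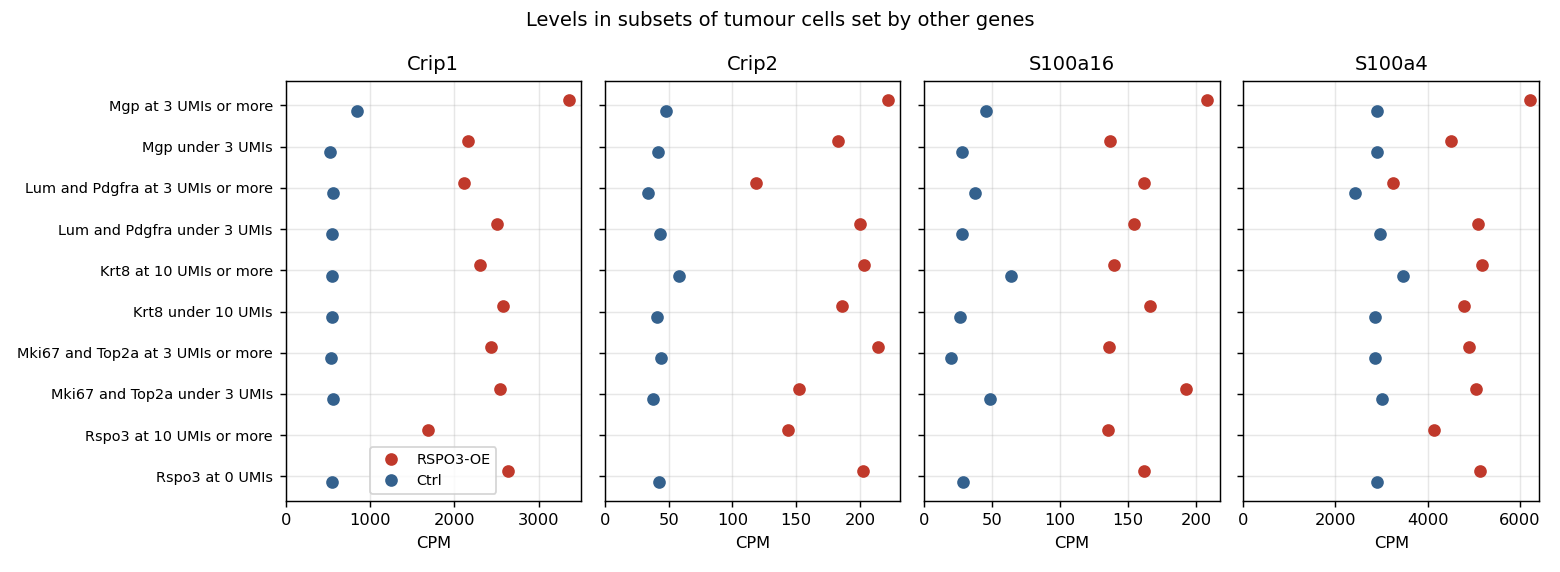
Level of Crip1, Crip2, S100a16 and S100a4 in subsets of tumour cells for both libraries (CPM). Crip1 is higher in RSPO3-OE in every subset that holds cells of both libraries, and its RSPO3-OE level is lower in cells with 10 or more Rspo3 UMIs than in those with none.

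Across single tumour cells Pearson correlations of depth-scaled UMIs on a log2 scale were computed within each library as descriptions, over 4196 cells in RSPO3-OE and 4319 in Ctrl that share a library and its depth. Crip1 and Crip2 were correlated at 0.64 in RSPO3-OE and 0.33 in Ctrl. Crip1 was correlated with S100a4 at 0.56 and 0.41, and S100a10 with S100a11 at 0.49 in both. S100a10 with S100a13 and with S100a16 were at 0.04 or less in size in both libraries. S100a13 and S100a16, which lie side by side among the members, were correlated at 0.41 and 0.23.

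Genes at 50 CPM or more in tumour cells of both libraries, 2536 in all, were ranked for likeness to a member by the lower of their correlations in the 2 libraries. Crip2 and S100a16, below that level in Ctrl, were not ranked as neighbours of others, and in a single library the order could differ. By this rule the gene nearest to S100a10 was Anxa2, its annexin partner, at 0.58 and 0.53, and the gene nearest to S100a6 was Lgals1, which encodes galectin 1, at 0.46 and 0.55, although S100a13 was higher in RSPO3-OE, at 0.48. Nearest to Crip1 were S100a4, Sh3bgrl3 and S100a6, although in RSPO3-OE alone Sh3bgrl3, at 0.61, and Crip2 were above S100a4. Near S100a13 were S100a6 and S100a1. Lgals1 was nearest to S100a4 (0.47 and 0.48), for which Crip1 was higher in RSPO3-OE, and to S100a11 (0.50 and 0.51). Ly6c1 was nearest to S100a16, at only 0.28 and 0.24. Over the 8 class-by-library levels, S100a8 and S100a9 were nearest each other and then Cxcr2, the neutrophil chemokine receptor, each with r above 0.99, and Crip1 was nearest Atf1 at 0.90. The 8 levels come from 4 classes of the same 2 libraries.

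Genes of lists that relate to the members were examined in tumour cells. Of 12 other S100 genes 9 were in the tables and 1 passed the minimum: S100a1, which lies in the same cluster on chromosome 3, at 199 and 128 CPM, a log2 ratio of 0.64. Of 15 other small LIM genes 5 passed and 0 were 2-fold different, with a median of 0.22, led by Csrp1 at 0.62. Of 19 annexins and intracellular partners 15 passed, 1 was higher and 0 lower, with a median of -0.03, beside -0.06 for all genes. The 1 was Anxa8, at 13.9 and 1.29 CPM, whereas Anxa2, the partner of S100A10, stood at 1221 and 991 CPM (log2 ratio 0.30), close to S100a10 itself at 0.33.

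Of the 9 genes of plasminogen activation, 6 passed and 1, the urokinase gene Plau, was higher at 12.1 against 5.65 CPM. Its receptor gene Plaur stood at 76.0 and 50.3 CPM. Of 12 receptor genes for released S100 proteins 4 passed and 0 were 2-fold different, and the RAGE gene Ager was at 0.677 and 1.17 CPM. Of 35 chromosomal neighbours of the members 6 passed and 0 were 2-fold different, with a median of -0.07. The neighbours Mta1 and Pacs2 of the Crip genes had log2 ratios of -0.05 and -0.22, against 2.17 and 2.19 for Crip1 and Crip2.

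S100a8 and S100a9 encode the calprotectin subunits, abundant in the neutrophil cytosol. Their promoter windows, and that of S100a4, are shown because all 3 hold TATAAA, in capitals, the core letters of a TATA box; the windows are drawn as those of the Crip genes.
S100a8 (chr3:90668891-90669090, plus strand): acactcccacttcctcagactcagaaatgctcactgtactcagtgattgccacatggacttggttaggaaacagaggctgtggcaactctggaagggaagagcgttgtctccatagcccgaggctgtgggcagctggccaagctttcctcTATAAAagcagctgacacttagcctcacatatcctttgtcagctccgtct
S100a9 (chr3:90695702-90695901, minus strand): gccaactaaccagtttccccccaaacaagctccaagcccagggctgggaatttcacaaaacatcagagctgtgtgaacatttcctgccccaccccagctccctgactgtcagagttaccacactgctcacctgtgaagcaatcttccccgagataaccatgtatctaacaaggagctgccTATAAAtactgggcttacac
S100a4 (chr3:90603590-90603789, plus strand): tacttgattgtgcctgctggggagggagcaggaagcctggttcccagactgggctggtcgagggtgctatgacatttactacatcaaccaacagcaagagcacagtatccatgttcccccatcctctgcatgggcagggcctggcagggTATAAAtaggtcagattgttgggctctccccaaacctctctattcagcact
TATAAA was found 30 bases before the start of S100a8 and 31 before that of S100a4, and at base 1 from the RefSeq start of S100a9. It occurred in 13.6% of promoter windows. Motifs of AP-1 (TGANTCA), TEAD (GGAATG), TCF/LEF (CTTTGAT) and C/EBP (TTNNGCAA) were searched too. The AP-1 motif had 2 matches at S100a11 and 1 at the downstream S100a16 start, and occurred in 7.81% of all windows. The C/EBP motif had 1 match, at S100a9, and occurred in 10.8%. The TEAD and TCF/LEF motifs had no match in the members' windows. In neutrophils S100a8 was at 27059 CPM in RSPO3-OE and 16852 in Ctrl, and S100a9 at 40493 and 22587 CPM. S100a8 was detected in 85.2% of the 81 RSPO3-OE neutrophils and 85.7% of the 14 in Ctrl. Their log2 ratios were 0.68 and 0.84. Among cells with a Retnlg UMI and no Hmga2 UMI (61 and 11) S100a8 was at 41092 and 45358 CPM and S100a9 at 61925 and 62713 CPM. The Ctrl levels of the full class were lowered by 1 cell with Hmga2 UMIs and by 2 cells with no Retnlg UMI, in which both genes were at 0 UMIs. The RSPO3-OE levels were lowered too, by 19 cells with no Retnlg UMI. In these S100a8 was at 7451 CPM and S100a9 at 10634.5 CPM.

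S100a8 made up 40.1% (39.2% to 40.9%) of the UMIs of the 2 genes in RSPO3-OE neutrophils and 42.7% (40.8% to 44.7%) in Ctrl neutrophils. In tumour cells S100a8 was at 0.694 and 0.188 CPM and S100a9 at 0.816 and 0.122 CPM. These levels are at or below 0.00257% of the neutrophil level, and Retnlg, which marks neutrophils, gave 3 UMIs in RSPO3-OE and 0 in Ctrl tumour cells. S100a8 had 80 and 20 UMIs there and S100a9 94 and 13, and the source of these UMIs was not tested. RSPO3-OE T cells held 3 S100a8 UMIs. In Ctrl 0 of 202 T cells held one, which allows a share of up to 1.81% of cells with a UMI and sets no limit on cells that express the gene.

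S100a6 was at 3451 and 5349 CPM in neutrophils (655 and 332 UMIs), a log2 ratio of -0.63 (-0.82 to -0.44), but at 3816 and 3895 CPM in the Retnlg-positive cells without an Hmga2 UMI. S100a11 was at 2271 and 1788 CPM (431 and 111 UMIs), a log2 ratio of 0.34. Of the 8 members that passed the minimum, 1 was at least 2-fold higher, where 22.7% of all 1619 genes were, and 1 lower, where 12% were. Crip1 was the higher one, at 1233 and 338 CPM (234 and 21 UMIs), and 123 of its RSPO3-OE UMIs came from 19 cells with no Retnlg UMI. In Retnlg-positive cells free of Hmga2 UMIs it was at 1008 CPM in RSPO3-OE, 111 UMIs in 19.7% of 61 cells, and at 0 UMIs in the 11 Ctrl cells. With at least 5 UMIs of Retnlg and Csf3r its log2 ratio was -0.85. S100a10 was the lower one, at 179 and 580.0 CPM (34 and 36 UMIs), but without cells holding Hmga2 its log2 ratio was 0.18. Of the 16 neutrophil genes of a further list 12 passed in neutrophils, of which 8 were higher and 0 lower, including Lcn2 (706 and 129 CPM) and Il1b (12844 and 4495 CPM), and the receptor gene Cd14 stood at 3135 and 709 CPM. The list holds both genes of the neutrophil gate, Retnlg and Csf3r, and Retnlg is 1 of the 8, so nothing is read from that count. These genes too were set against 14 Ctrl cells, in which fibroblast markers summed to 1482 CPM, against 42.1 CPM in RSPO3-OE, and macrophage markers to 10166 against 4568 CPM. Other markers were higher in RSPO3-OE neutrophils: monocyte markers summed to 4088 CPM, against 1386 CPM in Ctrl, and dendritic markers to 221 against 0 CPM. Of the 14 Ctrl cells 1 held Hmga2 UMIs, and that cell held a large part of all UMIs of the class. Of the Ctrl cells 12 had a Retnlg UMI, and 11 of those had no Hmga2 UMI. S100a8 was at 23373 CPM (1046 UMIs) in the 12 and 45358 CPM (920 UMIs) in the 11. S100a10 had 30 UMIs in the 12 and 0 in the 11. The part of this cell in the levels of Lcn2, Il1b and Cd14, and that of other cell types in these differences, was not tested.

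In macrophages 6 members passed the minimum, and 1, S100a4, was at least 2-fold higher in RSPO3-OE, beside 2.64% of 7608 genes; 0 were lower, beside 0.499%. S100a4 was at 305.0 and 127 CPM, a log2 ratio of 1.26 (1.18 to 1.34), and was detected in 64.3% and 43.9% of cells. Its per-cell medians were 86.6 and 0 CPM, and the 10% of cells with the most S100a4 UMIs held 71.3% and 73.3% of them. In macrophages with no Hmga2 UMI (1017 and 1069 cells) S100a4 was at 216 and 98.3 CPM. S100a4 stood at 557 and 296 CPM in macrophages with a UMI of the monocyte gene Ly6c2 (172 and 67 cells). It was at 257 and 119 CPM in those without (902 and 1039 cells), so it was higher with Ly6c2 in both libraries. Monocyte markers summed to 459 and 229 CPM in the macrophage class. The log2 ratio of S100a4 was 1.12 in macrophages without a Ly6c2 UMI and 1.14 in those without an Hmga2 UMI, and it was 0.94, below the 2-fold line, with C1q genes at 50 UMIs or more.

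S100a4 in macrophages was at 6.16% and 4.38% of its tumour-cell level. Tumour genes in macrophages were at 2.0% and 1.52% (Hmga2), 2.43% and 2.32% (Krt8) and 6.02% and 4.85% (Igf2bp2) of theirs. Igf2bp3, at 1.14 and 1.65 CPM in tumour cells and 1.83 and 1.28 CPM in macrophages, was at 161% and 77.6%. The part of free tumour RNA in the level of S100a4 was not tested. Crip1 was at 484 and 360 CPM, 19.6% and 65.7% of its tumour level, and S100a13 at 125 and 122 CPM, 50.1% and 60.4%. S100a6 was at 998.97 and 636 CPM, a log2 ratio of 0.65, at 5.86% and 4.06% of its tumour level. In macrophages with no Hmga2 UMI S100a6 was at 623 and 497 CPM, a smaller ratio. S100a10 was at 337 and 258 CPM (log2 ratio 0.39) and S100a11 at 227 and 222 CPM (0.03). Crip2 and S100a16, at 5.64 CPM or less, were below the minimum.

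In T cells 7 members passed, and 0 were at least 2-fold higher or lower, beside 2.44% and 4.87% of 7944 genes. Crip1 was at 895 and 641 CPM, a log2 ratio of 0.48, S100a4 at 2532 and 1953 CPM (0.37), S100a10 at 1139 and 968 CPM (0.23) and S100a11 at 1013 and 899 CPM (0.17). S100a6 was at 3486 and 5101 CPM, a log2 ratio of -0.55. In Ctrl 17 of 202 T cells held an Hmga2 UMI, and in them S100a6 was at 12016 CPM, against 10232 CPM in the 20 such cells of RSPO3-OE. Tumour markers summed to 144 and 248 CPM in the T cell class. Among T cells with no Hmga2 UMI (388 and 185) S100a6 was at 2616 and 2442 CPM, and the log2 ratio was 0.10. In these cells S100a4 was at 2456 and 1690 CPM and S100a10 at 1027 and 797 CPM, larger ratios than in the full class. Crip1 was at 856 and 678 CPM, a smaller ratio. Crip2, at 11.6 and 18.0 CPM, had a log2 ratio of -0.63 in the full class and of 0.69 without cells holding an Hmga2 UMI, where it rested on 14 and 4 UMIs.

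A further class of monocytes, cells with a Ptprc UMI and 3 or more Ly6c2 UMIs that passed no gate, numbered 152 in RSPO3-OE and 41 in Ctrl. All 10 members passed the minimum there, 2 were at least 2-fold higher, beside 12.6% of 6333 genes, and 0 were lower, beside 3.17%. The 2 were Crip2 (44 and 0 UMIs) and S100a9 (123 and 0 UMIs), with the 0 replaced by a floor of 3 UMIs. Crip2 came from 4 of the 152 cells and S100a9 from 5, and 6 of the RSPO3-OE monocytes but 0 of those of Ctrl held an Hmga2 UMI, whose part was not tested. Crip1 was at 1784 and 1830.4 CPM, S100a4 at 2167 and 2422 CPM and S100a6 at 4310.3 and 3623 CPM, each above its macrophage level in the same library. S100a8 was at 124 and 116 CPM, in 12 of 152 and 4 of 41 cells.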

How the data were processed

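Droplet 3′ single-cell RNA sequencing was done on 1 MC38-RSPO3-OE and 1 MC38-Ctrl tumour library. The deposited values are raw UMI counts per gene and barcode, which the authors produced by Cell Ranger 3.0.1 (build mm10), per the submitters' processing notes; the matrix header gives version 3.1.0. Barcodes had been called as cells by the authors.

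Barcodes were left out below 200 genes or above 20% mitochondrial UMIs (150 in RSPO3-OE, 311 in Ctrl) and where Scrublet in scanpy 1.11.5, at an expected rate of 0.05, marked a doublet (173 or 2.41%, and 94 or 1.34%). Kept cells had medians of 18911 and 16627 UMIs. Cells were put in 4 classes by UMI gates, and cells passing more than 1 (144 and 69) or none (1088 and 1186) were left out. UMIs were summed per class and library and divided by the class total (CPM). Log2 ratios carry exact binomial, shares exact Clopper-Pearson and sums exact Poisson intervals. The ratio and thinning steps were tested on simulated counts. With 1 library per group no test was possible. A gene counts as higher or lower at 2-fold or more, given 10 CPM in the higher library and 20 UMIs in sum. The members, gates, markers and lists were chosen with earlier results of these data known. The text names all 10 members, of the other lists up to 2 genes at each end of the ratio in tumour cells (for immune genes also in the class of highest level), and the 3 genes most like a member; Ager was named after its value was seen. Promoters came from RefSeq and gene positions from GENCODE. Software was Python 3.11.15 with pandas 2.3.3, scipy 1.17.1, numpy 2.4.6 and matplotlib 3.10.9.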

Additional observations from a re-analysis of the deposited data

Results flagged for a closer look

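S100a6 pointed in opposite directions in the full classes: its log2 ratio was 0.12 in tumour cells and 0.65 in macrophages but -0.55 in T cells and -0.63 in neutrophils. The difference between classes was not tested, and without cells holding an Hmga2 UMI the T cell value was 0.10 and the macrophage value 0.33. S100a11 also differed in direction, with a log2 ratio of 0.17 in T cells and -0.05 in tumour cells, which was not tested.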

How the results depend on the processing

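The count of 3 members at least 2-fold higher and 0 lower in tumour cells became 4 and 0 at 1.5-fold, where S100a4 was added, and was the same under the other alternatives run, with log2 ratios of 2.11 to 2.27 for Crip1, 2.15 to 2.29 for Crip2 and 2.19 to 2.52 for S100a16. No paired analysis was possible because each group has 1 library. The share of all genes called was not computed for the alternatives, so nothing is read from the counts of members under them. The genes passing the minimum also changed, in neutrophils from 1619 to 7811 with cells passing 2 gates kept. In macrophages the count of higher members, 1, became 3 with doublets kept, 4 with cells passing 2 gates kept, 2 at 1.5-fold and 0 with C1q genes at 50 UMIs or more. In T cells, where it was 0, it became 1 with doublets kept and 1 with cells passing 2 gates kept, and 1 was lower at 1.5-fold. In neutrophils the count of higher members, 1, became 2 at 500 genes or more per cell, 3 with median-of-ratios scaling, 6 with cells passing 2 gates kept, 3 at 1.5-fold, 2 with Retnlg and Csf3r at 5 UMIs or more and 2 without cells holding an Hmga2 UMI. The count of lower members there, 1, became 2 at 500 genes or more, 0 when CPM was averaged over cells, 0 after thinning to 1000 UMIs, 0 with cells passing 2 gates kept, 3 at 1.5-fold, 2 with Retnlg and Csf3r at 5 UMIs or more, 0 without Hmga2-positive cells and 2 with at least 1 Retnlg UMI. S100a10 in neutrophils changed sign, to 0.83 with cells passing 2 gates kept and 0.18 without Hmga2-positive cells, and Crip1 there changed to -0.85 with Retnlg and Csf3r at 5 UMIs or more. Other members changed sign in neutrophils too: S100a4, from -3.34 to 2.12, kept its sign in 4 of 10 alternatives, S100a6, from -0.86 to 1.44, in 6, and S100a11 and S100a13 each in 8. The cause of these changes was not tested. The settings that leave out cells by an Hmga2, Ly6c2 or Retnlg UMI were chosen after seeing the data. With median-of-ratios scaling the median log2 ratio of all genes was 0.84 in neutrophils, against 0.19, and 0.04 in tumour cells, against -0.06. The Ctrl neutrophils were 14 cells with a median of 1797 UMIs.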
